A study of Mus musculus with 62 samples.

Results

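The genes that encode the subunits of glutamate, GABA and glycine receptors were followed in mouse cerebellum during melanoma-induced cachexia. They were taken by symbol, and 52 of the 47643 symbols in the deposited expression table matched: 4 AMPA, 5 kainate, 7 NMDA, 2 delta, 8 metabotropic glutamate, 19 GABA-A, 2 GABA-B and 5 glycine receptor genes. The study sequenced cerebellum RNA in 62 libraries from female 2-month-old mice. In order, the groups are mice that received cachectic melanoma cells (CAC), mice that received melanoma cells that cause no cachexia (NCAC) and mice with a mock injection, each sampled after 2, 4, 6 or 8 weeks (wk). Every group held 5 libraries, except CAC at 8 wk with 7. The labels name no gene deletion, and they give the strain both as C57BL6/J and as NCI Ath/nude, so the host's strain, and with it whether it lacked T cells, is not settled here. The extraction protocol mentions LLC cells, which the sample descriptions do not, so the injected cells are named here as the descriptions give them. Which animal each library came from is not labelled, so p-values measure the spread between libraries, part of which may be technical.

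Glutamate released by mossy, climbing and parallel fibres excites the cerebellar cortex. AMPA, kainate and NMDA receptors are glutamate-gated cation channels, the delta receptors act mainly as synaptic organisers that bind cerebellins and related proteins, and the metabotropic receptors (mGlu) signal through G proteins. GABA and glycine from Golgi and molecular layer interneurons act on chloride channels, and GABA-B receptors are G protein-coupled. Cerebellar granule cells carry a characteristic set, with the GABA-A subunits alpha6 and delta and the NMDA subunit GluN2C.

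Values were TPM, a unit of transcript abundance that gives every library the same total. They correct for gene length, so levels of different genes can be set side by side. The depth of each library is unknown, because TPM keeps no counts. The tissue label fitted its markers: the 9 granule cell markers summed to between 2628 and 3622 TPM and the 9 Purkinje cell markers to between 5324 and 6970 TPM. Pairwise correlations of libraries over genes lay between 0.9748 and 0.995. In 4 libraries a list of 13 brainstem and spinal cord markers, mostly Hox genes, summed to between 23.4 and 27.8 TPM, against 0.643 to 14.3 TPM in the other 58. These were replicate 3 of CAC at 2 wk, replicate 2 of CAC at 6 wk, replicate 5 of NCAC at 6 wk and replicate 1 of mock at 8 wk, and calls that change without them are given with the counts of called members. Choroid plexus markers summed to between 152 and 8148 TPM.

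Subunit genes differed widely in level. Gabra6, which encodes alpha6, had the highest level of the 52 at 1027 ± 74.5 TPM (SD, n = 62). High levels were also seen for Gabbr1 with 354 ± 15.9 TPM, Grm4 with 348 ± 65.6 TPM and Gria4 with 317 ± 23.8 TPM, neighbours whose library ranges overlapped. In the NMDA, glycine and kainate classes the highest level belonged to Grin2c (GluN2C) at 234 ± 30.3 TPM, to Glrb (the glycine receptor beta subunit) at 226 ± 10.4 TPM and to Grik5 (the high-affinity kainate subunit GluK5) at 47.4 ± 2.57 TPM. In all, 15 members averaged at least 100 TPM and 20 averaged below 10. The 8 members with a mean below 1 TPM, namely Grm6, Gabre, Gabrp, Gabrq, Gabrr1, Gabrr3, Glra3 and Glra4, were not tested, which left 44. Their means lay between 0.0044 TPM (Grm6) and 0.631 TPM (Gabrq). Summed over a class, GABA-A subunits held 2081 ± 103 TPM, or 43.2% of all member TPM.

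**Figure D1:**
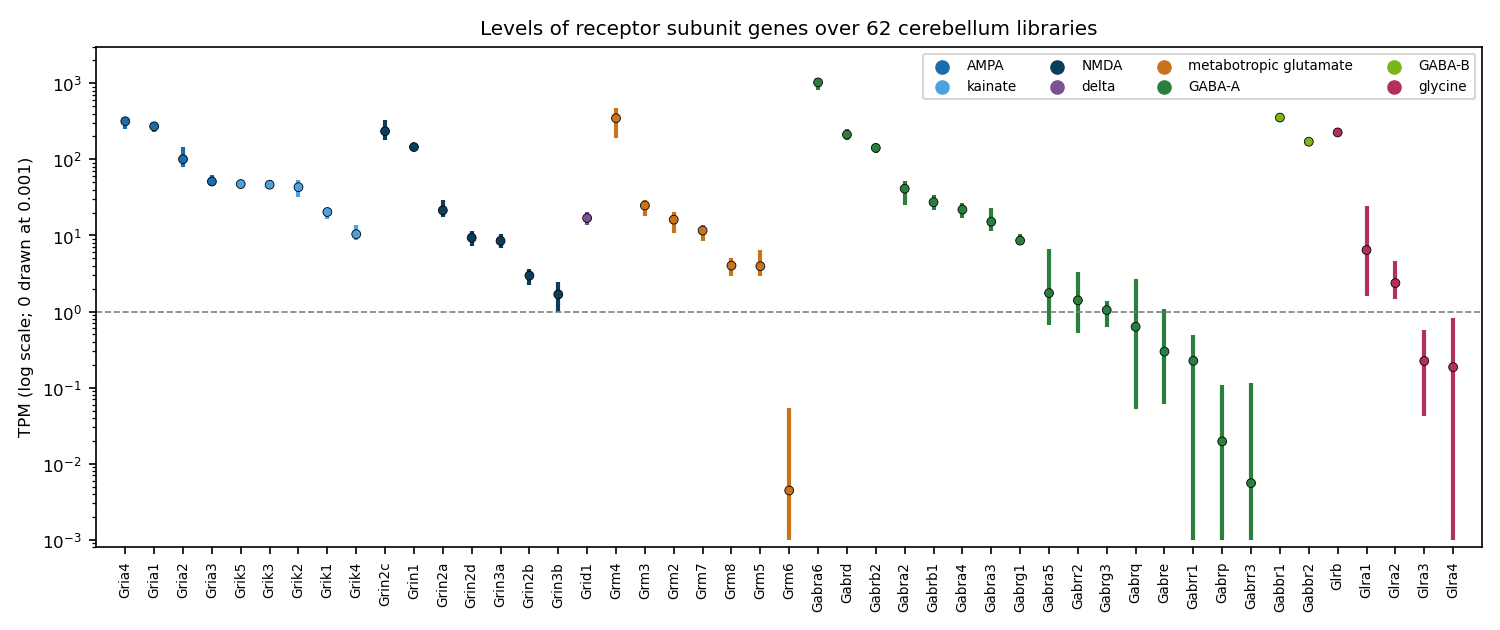
Levels of subunit genes in TPM on a log axis, coloured by receptor class; points are means over the 62 libraries, vertical lines run from the lowest to the highest library, and the dashed line marks the mean of 1 TPM needed for testing. Gabra6 stands highest at 1027 TPM, and the bars of Glra1 (1.60 to 24.3 TPM) and Gabra5 (0.658 to 6.72 TPM) are long.

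The 12 group means of most members lay close together. Only 5 of the 44 tested members had group means that spread over more than 1.5-fold, and 3 over more than 2-fold. The 3 were Glra1, Gabra5 and Gabrr2. Among abundant genes Grm4 had the widest spread, with a group mean of 250 TPM in CAC at 8 wk and 399 TPM in mock at 2 wk.

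The first comparison asked how the cerebellum of CAC mice differed from that of mock-injected mice in each week. At 8 wk, limma with Benjamini-Hochberg adjustment over all 14399 tested genes called 9 of the 44 members (20.5%) at an adjusted p under 0.05, against 20.8% of all tested genes. The members' share is near that background. Of the 9, 6 were lower (Grm4, Gabra2, Grm3, Grin2d, Grin2b and Gria4), where 7.34% of all genes were called lower, and 3 were higher (Grin3b, Grik2 and Gria2), where 13.4% of all genes were called higher. Leaving out 1 library moved the count of 9 to 14 without replicate 3 of CAC and to 5 without replicate 6 of CAC or replicate 3 of mock. The median log2 fold change of the members was -0.03, against 0.02 for all tested genes. The direction of calls depends on scaling: 64.6% of all calls were higher here, 49.4% with median-of-ratios scaling, 47.0% with quantile normalization and 41.8% with mitochondrially encoded genes removed, and the members then split into 2 higher and 9 lower, 2 and 9, and 1 and 9. Mitochondrially encoded genes took 19.0 ± 1.31% of TPM in CAC at 8 wk (SD, n = 7) and 20.9 ± 1.18% in mock at 8 wk (SD, n = 5).

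Earlier weeks gave few calls. At 6 wk 1 member, Gria4, was called against mock, where 1.72% of all genes were called and 0.313% were called lower. At 2 and 4 wk limma called 0 members (background 0% and 0.00694%). An unadjusted p under 0.05 (limma) was reached by 0 and 1 of the 44 members, against 697 and 1149 of all 14399 tested genes. Against NCAC, which shares its CAC libraries with the comparison above, 5 members were called at 6 wk (11.4%, background 9.45%) and 6 at 8 wk (13.6%, background 11.8%). The members called at 6 wk were Gria2, higher (background 7.47%), and Gabra2, Gria4, Grm3 and Grm7, lower (background 1.99%). Those called at 8 wk were Gabrr2 and Grik2, higher (background 7.76%), and Gabra2, Gria4, Grm3 and Grm4, lower (background 4.01%). With the 3 other scalings the split of 1 higher and 4 lower at 6 wk became 0 and 6, 0 and 5, and 0 and 4, and that of 2 and 4 at 8 wk became 2 and 5, 2 and 5, and 2 and 6. At 2 and 4 wk 0 members were called against NCAC by limma (background 0% and 0.00694%). An unadjusted p under 0.05 (limma) was reached by 3 and 5 of the 44 members, against 987 and 1363 of all 14399 tested genes.

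Without the 4 libraries high in brainstem markers, the calls against mock were 5 at 8 wk (Gabra2, Gria4, Grm3, Grm4 and Grik1, all lower) and 0 at 6 wk. Against NCAC they were then 2 at 6 wk, Gria2 higher and Gabra2 lower. CAC and NCAC at 8 wk hold none of the 4 libraries, so their log2 fold changes could not move. The 6 calls of 8 wk therefore stood, which is no check on brainstem carry-over there.

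NCAC and mock libraries gave 0 called members in every week by limma. The background was 0.0139% at 2 wk and 0% at 4, 6 and 8 wk. An unadjusted p under 0.05 (limma) was reached by 1, 0, 7 and 4 of the 44 members. Of all 14399 tested genes 780, 306, 1202 and 1038 reached it.

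**Figure D2:**
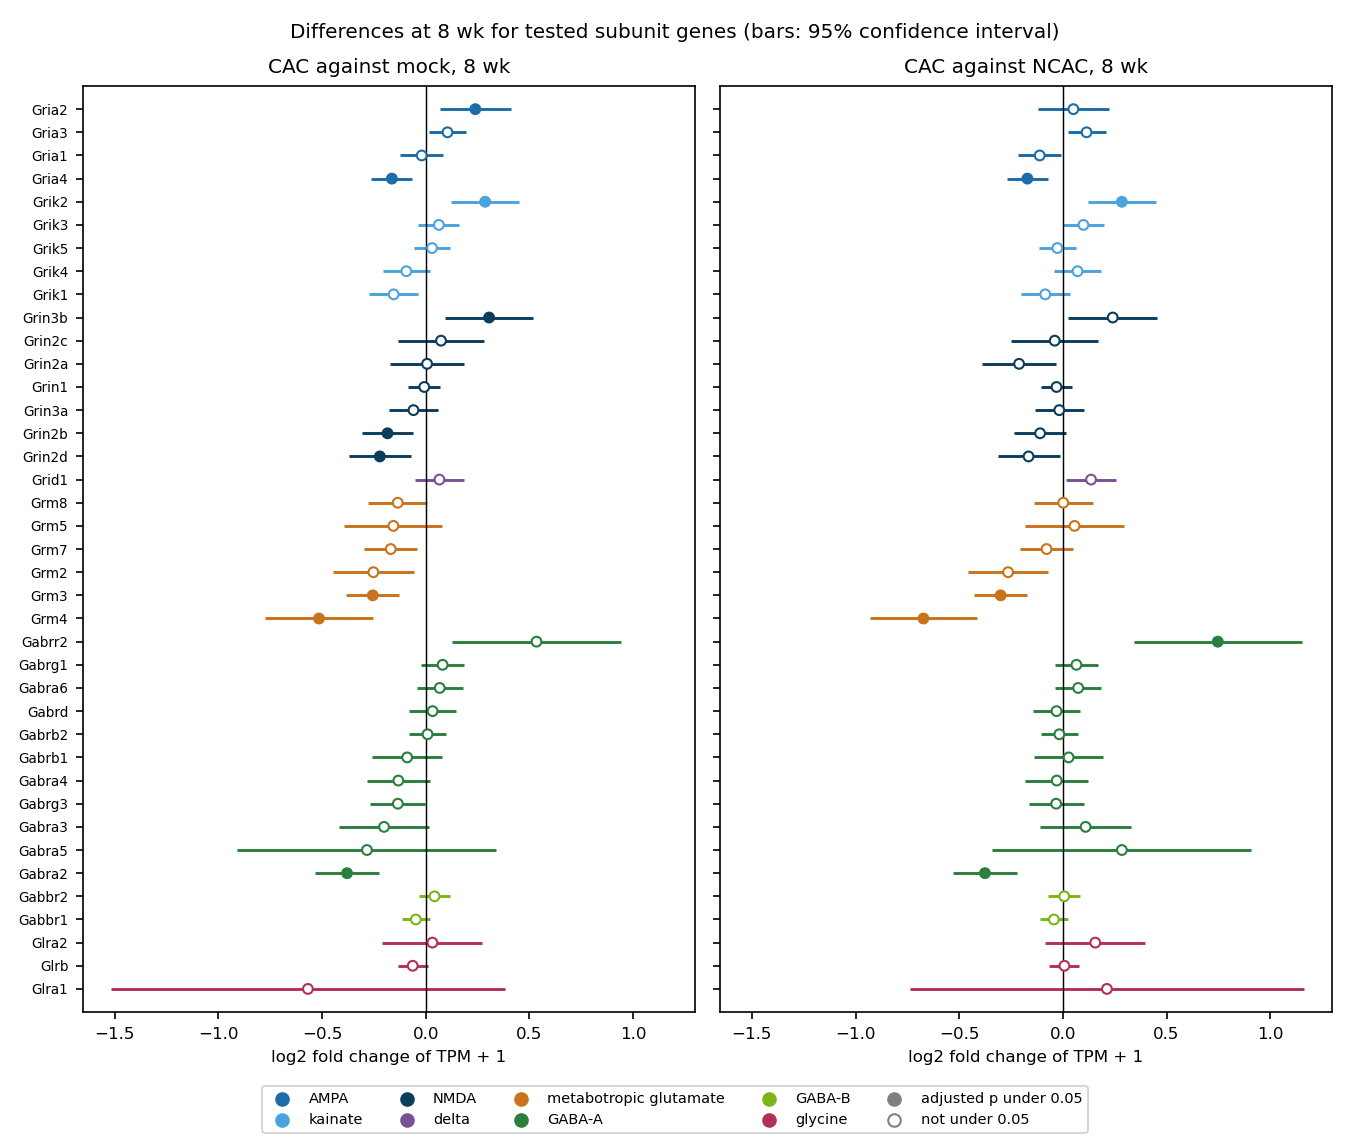
Log2 fold change of TPM + 1 for tested subunit genes at 8 wk, CAC against mock on the left and CAC against NCAC on the right, with 95% confidence intervals; colours give the receptor class and filled points an adjusted p under 0.05. Grm4 and Gabra2 lie furthest to the left among filled points in both panels, and the interval of Glra1 reaches from -1.52 to 0.38 in the left panel.

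The 250 bases upstream of the RefSeq transcription start (mm10, GRCm38.p6) are shown for 4 genes called against both mock and NCAC at 8 wk, 3 lower (Gabra2, Grm3, Gria4) and 1 higher (Grik2). They lie at chr5:71095850-71096099, chr5:9725353-9725602, chr9:4796235-4796484 and chr10:49788755-49789004, all on the minus strand. They are written 5′ to 3′, and capitals mark the GC box GGGCGG, the SP1 motif, searched on both strands.
Gabra2: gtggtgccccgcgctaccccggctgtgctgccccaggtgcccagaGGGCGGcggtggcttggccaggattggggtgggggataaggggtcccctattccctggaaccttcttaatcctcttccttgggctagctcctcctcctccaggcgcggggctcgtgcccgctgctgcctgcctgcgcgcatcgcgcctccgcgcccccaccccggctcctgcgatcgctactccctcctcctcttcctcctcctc
Grm3: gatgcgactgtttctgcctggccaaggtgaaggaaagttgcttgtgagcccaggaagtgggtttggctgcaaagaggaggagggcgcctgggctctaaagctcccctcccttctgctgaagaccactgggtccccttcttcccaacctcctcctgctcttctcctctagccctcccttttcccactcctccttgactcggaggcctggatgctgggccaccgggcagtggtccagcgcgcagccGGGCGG
Gria4: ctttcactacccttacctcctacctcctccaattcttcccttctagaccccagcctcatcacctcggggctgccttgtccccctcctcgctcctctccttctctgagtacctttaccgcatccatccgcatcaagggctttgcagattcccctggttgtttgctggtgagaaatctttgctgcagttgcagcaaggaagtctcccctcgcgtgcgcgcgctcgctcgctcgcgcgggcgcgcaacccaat
Grik2: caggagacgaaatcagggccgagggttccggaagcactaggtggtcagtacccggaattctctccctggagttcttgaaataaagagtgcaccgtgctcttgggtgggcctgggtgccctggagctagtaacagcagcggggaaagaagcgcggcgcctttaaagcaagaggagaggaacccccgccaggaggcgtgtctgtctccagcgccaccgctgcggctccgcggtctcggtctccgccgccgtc
The GC box occurred once each in the Gabra2 and Grm3 windows, and 32.7% of the 32851 RefSeq windows of the same length hold it. The Gria4 and Grik2 windows hold none of these letters. The NRF1 motif, the cAMP response half-site TGACG, the E-box CACGTG, the TATA box TATAAA and the glucocorticoid receptor half-site pair ACANNNTGT, searched on both strands, were in none of the 4 windows and in 3.74%, 17.8%, 6.02%, 12.4% and 5.84% of all windows. The 4 windows hold 18, 8, 16 and 20 CpG dinucleotides in the order printed, and the median over all windows is 6. RefSeq promoter windows were matched for 36 of the 52 members, and Grm4 is named only.

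Among metabotropic receptors the largest difference was that of Grm4, which encodes mGlu4, a presynaptic receptor of the parallel fibre terminals that restrains glutamate release. Grm4 lies at chr17:27422387-27521403 on the minus strand. In CAC at 8 wk its TPM had a lowest value of 193, a median of 226 and a highest value of 392, against 339, 417, 334, 335 and 325 in mock at 8 wk. NCAC at 8 wk gave 391, 388, 356, 436 and 379 TPM. Of the 7 CAC libraries 6 lay below every mock and every NCAC library, and replicate 3, at 392 TPM, lay among them. The log2 fold change was -0.51 ± 0.13 (SE) against mock (adjusted p = 0.00299, limma) and -0.67 ± 0.13 against NCAC (adjusted p = 0.000389, limma). Without replicate 3 of CAC the value against mock was -0.63 (adjusted p = 9.0e-05, limma), the furthest from 0 of 22 alternatives. The nearest to 0 was -0.45, and the highest adjusted p of the 22 was 0.0311 (limma). At 6 wk Grm4 had 238, 251, 343, 388 and 270 TPM in CAC and 338, 367, 301, 399 and 364 TPM in mock, a log2 fold change of -0.27 that did not pass (adjusted p = 0.340, limma). The granule cell marker sum, from the cells that carry parallel fibres, was 3002 ± 219 TPM in CAC (SD, n = 7) and 2975 ± 150 TPM in mock (SD, n = 5) at 8 wk, and Gabra6 averaged 1019 ± 81.5 and 971 ± 50.5 TPM in the same groups. In whole tissue, fewer cells of a type and less RNA per cell cannot be told apart.

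Grm3, which encodes the group II receptor mGlu3 of glia and some neurons, was lower as well. It lies at chr5:9485541-9725170 on the minus strand. Its TPM in CAC at 8 wk was 18.2 at the lowest, 20.8 at the median and 25.1 at the highest, against 23.7, 27.8, 25.9, 27.5 and 23.4 in mock and 25.1, 24.9, 25.8, 27.1 and 29.5 in NCAC. Here too 6 of the 7 CAC libraries lay below every mock and NCAC library. Its log2 fold change was -0.26 ± 0.063 (SE) against mock (adjusted p = 0.00274, limma) and -0.30 ± 0.063 against NCAC (adjusted p = 0.00104, limma). At 6 wk Grm3 had 19.7, 22.3, 22.9, 23.9 and 21.6 TPM in CAC and 23.9, 28.1, 27.7, 24.7 and 26.9 TPM in NCAC. The difference was called (adjusted p = 0.0220, limma), as were 9.45% of all tested genes. That call was lost without the libraries high in brainstem markers and with the compared groups alone. It was also lost without replicate 1 of CAC or replicate 2, 3 or 5 of NCAC. Log2 fold changes over 20 alternatives lay between -0.29 and -0.20. Grm7, which encodes the presynaptic group III receptor mGlu7, was called against NCAC at 6 wk alone, with 9.92, 9.16, 11.9, 11.5 and 8.52 TPM in CAC and 11.8, 12.03, 12.9, 13.05 and 12.5 TPM in NCAC (log2 fold change -0.27 ± 0.069 SE, adjusted p = 0.0118, limma). The call of Grm7 was lost without replicate 5 of CAC, without the libraries high in brainstem markers and with the compared groups alone. Its log2 fold changes over 20 alternatives lay between -0.33 and -0.21. Against mock at 8 wk its log2 fold change was -0.17 (adjusted p = 0.0504), and it was called in 7 of 22 alternatives, among them the 3 other scalings (adjusted p between 0.0171 and 0.0239, limma) and the omission of replicate 3 or 4 of CAC or replicate 5 of mock. Grm2, which encodes the Golgi cell receptor mGlu2, had -0.25 (adjusted p = 0.0555), and it was called in 6 of 22, with the 3 other scalings (adjusted p between 0.0237 and 0.0315, limma), the brainstem covariate, and without replicate 3 or 5 of CAC. Grm8, which encodes mGlu8, had between 3.61 and 4.12 TPM in CAC and between 4.145 and 4.68 TPM in mock at 8 wk. Its log2 fold change of -0.13 was not called (adjusted p = 0.174, limma). Grm5, which encodes the group I receptor mGlu5, had -0.16 and was not called.

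Glial markers were read beside these genes. In CAC against mock at 8 wk 5 of 6 oligodendrocyte markers and 2 of 5 precursor markers were lower (7.34% of all genes), and 0 were higher. Against NCAC 4 of 6 and 1 of 5 were lower at 6 wk (1.99% of all genes), and 3 of 6 and 3 of 5 at 8 wk (4.01% of all genes). Of 9 Bergmann glia and astrocyte markers 3 were higher and 3 lower against mock at 8 wk, with a sum of 4372 ± 187 TPM in CAC (SD, n = 7) and 4207 ± 117 TPM in mock (SD, n = 5). The oligodendrocyte sum was between 1598 and 2073 TPM in CAC and between 2018 and 2741 TPM in mock at 8 wk. The precursor sum was between 69.6 and 102 TPM in CAC and between 84.7 and 132 TPM in mock, and no marker of these 3 lists was at 0 in any library. Their part in the differences of Grm3, Gria4, Gabra2 and the other lower members was not tested.

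**Figure D3:**
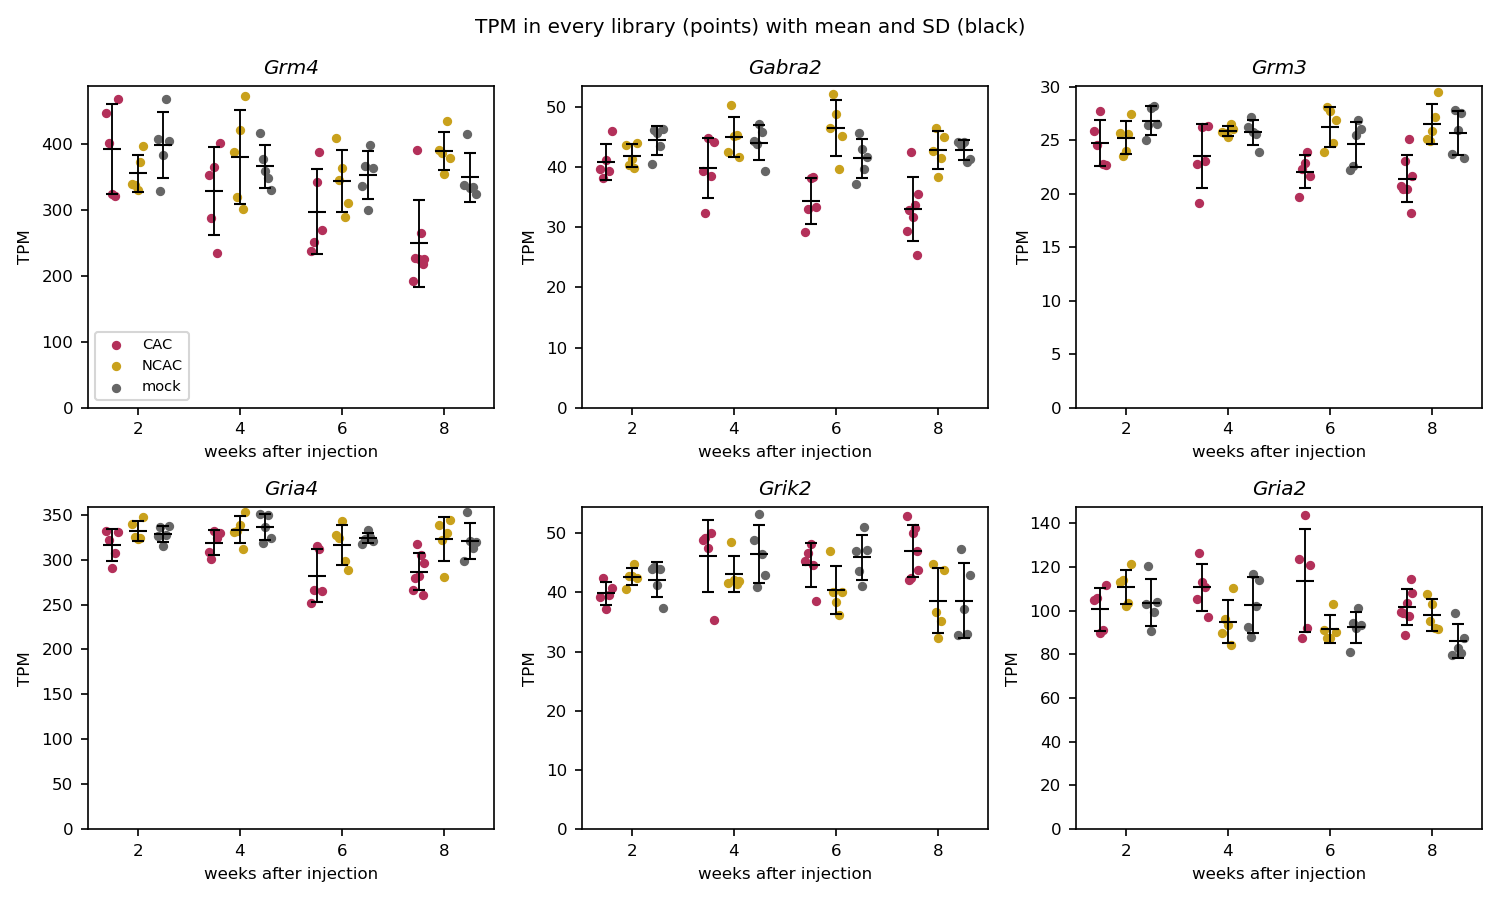
TPM of 6 called subunit genes in every library by week, with CAC, NCAC and mock side by side; points are libraries and black marks the mean and SD of each group. At 8 wk 6 of 7 CAC points of Grm4, Gabra2 and Grm3 lie below all mock points, and the remaining Grm4 point, at 392 TPM, is replicate 3.

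AMPA receptors held 2 called subunits with opposite signs in CAC, Gria4 lower and Gria2 higher. Gria4, which encodes GluA4, a subunit of granule cells and Bergmann glia, lies at chr9:4417896-4796234. In CAC at 6 wk it had 252, 266, 315, 312 and 265 TPM, against 318, 323, 333, 325 and 321 in mock and 328, 324, 343, 299 and 288 in NCAC. Of all tested genes 1.72% were called against mock at 6 wk. Gria4 was lower than in mock, at -0.20 ± 0.054 on the log2 scale (SE, adjusted p = 0.0334, limma). It was no longer called in 11 of 20 alternatives, among them the omission of replicate 1, 2 or 5 of CAC or any 1 of replicates 2 to 5 of mock. Its log2 fold changes over the 20 lay between -0.24 and -0.15 (adjusted p between 0.00787 and 0.221, limma). At 8 wk Gria4 in CAC had a lowest value of 260, a median of 282 and a highest value of 318 TPM, against 299, 353, 320, 313 and 319 TPM in mock, with 5 of 7 CAC libraries below every mock library. The log2 fold change was -0.16 ± 0.050 (SE, adjusted p = 0.0141, limma) against mock and -0.17 ± 0.050 against NCAC (adjusted p = 0.0167, limma). Without replicate 2 of mock the value against mock was -0.13 (adjusted p = 0.0671, limma). The call against mock was also lost with the replicate block and with the compared groups alone (adjusted p = 0.0550 and 0.0639, limma). At 6 wk the call against NCAC was lost in 9 of 20 alternatives, among them the omission of replicate 1, 2 or 5 of CAC or replicate 1, 2 or 3 of NCAC, with values between -0.21 and -0.13. At 8 wk the call against NCAC was lost in 5 of 22 alternatives, with values between -0.22 and -0.15. These were the replicate block, the compared groups alone, and the omission of replicate 6 of CAC or replicate 1 or 5 of NCAC.

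Gria2, which encodes GluA2, the subunit that makes AMPA channels impermeable to calcium, was called higher against mock at 8 wk. It had a lowest value of 88.8, a median of 99.3 and a highest value of 115 TPM in CAC at 8 wk, against 79.5, 98.7, 83.0, 80.8 and 87.4 TPM in mock, and 5 of 7 CAC libraries lay above every mock library. The log2 fold change against mock was 0.24 ± 0.086 (SE, adjusted p = 0.0389, limma), and the call was lost in 14 of 22 alternatives, among them each of the other 3 scalings and the omission of replicate 4, 6 or 7 of CAC or replicate 1, 3, 4 or 5 of mock (log2 fold changes between 0.18 and 0.29). Against NCAC at 8 wk it was 0.05 (adjusted p = 0.776), while at 6 wk it was 0.28 ± 0.093 (adjusted p = 0.0418, limma), with 124, 87.4, 144, 92.2 and 121 TPM in CAC and 91.0, 87.3, 87.5, 103 and 90.04 TPM in NCAC. The 2 groups overlapped at 6 wk, and 3 of 5 CAC libraries lay above every NCAC library. That call was lost in 12 of 20 alternatives, among them the omission of replicate 1, 3 or 5 of CAC or replicate 1, 2, 3 or 5 of NCAC (log2 fold changes between 0.19 and 0.37). Gria4 made up 41.0 ± 1.99% of AMPA subunit TPM in CAC (SD, n = 7) and 44.7 ± 0.966% in mock at 8 wk (SD, n = 5), and Gria2 14.6 ± 1.51% in CAC and 11.96 ± 0.616% in mock. Over the weeks, group means of Gria2 lay between 85.9 and 103.6 TPM in mock and between 100.6 and 113.7 TPM in CAC. Of the 12 groups mock at 8 wk had the lowest mean of Gria2, so mock at other weeks reached the range of CAC. Against mock at 8 wk Gria1 (GluA1) had a log2 fold change of -0.02 and Gria3 (GluA3) of 0.11, and neither was called.

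Of the kainate receptor genes Grik2, which encodes the channel subunit GluK2, was called higher at 8 wk against mock and against NCAC. It lies at chr10:49094833-49788766 on the minus strand. Its TPM in CAC was 42.0 at the lowest, 47.0 at the median and 52.9 at the highest, against 32.8, 47.3, 37.1, 33.0 and 42.9 in mock and 44.8, 36.7, 32.4, 35.3 and 43.9 in NCAC. Mock libraries were spread widely, and 3 of 7 CAC libraries lay above the highest of them. Over the weeks, group means of Grik2 lay between 38.6 and 46.5 TPM in mock and between 38.6 and 43.1 TPM in NCAC. Those of CAC lay between 39.9 and 47.0 TPM. At 8 wk mock and NCAC were at their lowest mean and CAC at its highest, so mock at another week came close to CAC at 8 wk. Grik2 differed by 0.29 ± 0.082 on the log2 scale (SE, adjusted p = 0.00874, limma) against mock and 0.28 ± 0.082 against NCAC (adjusted p = 0.0161, limma). Replicate 1 of mock, which was high in brainstem markers, had the lowest of the mock values, and without it the log2 fold change was 0.23 (adjusted p = 0.0554, limma). The call against mock was also lost with the compared groups alone (adjusted p = 0.0599, limma). Against NCAC the call was lost with the compared groups alone and without replicate 3 or 4 of NCAC. Its log2 fold changes over 22 alternatives lay between 0.23 and 0.34. Grik5, the most abundant kainate subunit gene, averaged 46.2 ± 1.84 TPM in CAC (SD, n = 7) and 45.3 ± 3.04 TPM in mock (SD, n = 5), with a log2 fold change of 0.03. Grik1, which encodes GluK1, had -0.15 (adjusted p = 0.0517), and it was called lower in 10 of 22 alternatives, among them the 3 other scalings (adjusted p between 0.0128 and 0.0180, limma) and the omission of replicate 3 or 4 of CAC or replicate 1 or 5 of mock. Grik3 and Grik4 had 0.06 and -0.09.

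The abundant NMDA receptor subunits were not called at 8 wk. Grin1, the obligatory subunit, had a log2 fold change of -0.01 with a 95% interval of -0.08 to 0.07, and Grin2c had 0.07 with an interval of -0.13 to 0.28, at 228 ± 14.6 TPM in CAC (SD, n = 7) and 217 ± 27.9 TPM in mock (SD, n = 5). The 3 called genes had low levels. Grin2d, which encodes GluN2D, a subunit of Golgi cells, had a lowest value of 7.33, a median of 8.36 and a highest value of 10.03 TPM in CAC, against 10.2, 10.6, 10.8, 9.60 and 8.67 TPM in mock (log2 fold change -0.22 ± 0.075 SE, adjusted p = 0.0280, limma). Grin2b, which encodes GluN2B, a subunit prominent in immature granule cells, had 2.22, 2.64 and 3.04 TPM as lowest, median and highest values in CAC, against 3.19, 3.14, 3.49, 2.73 and 2.83 TPM in mock (log2 fold change -0.18 ± 0.062 SE, adjusted p = 0.0272, limma). Of the 7 CAC libraries 5 lay below every mock library for each of these 2 genes. Grin3b, which encodes the glycine-binding subunit GluN3B, had 1.23, 2.10 and 2.25 TPM as lowest, median and highest values in CAC, against 1.52, 1.68, 1.11, 1.44 and 1.31 TPM in mock (log2 fold change 0.31 ± 0.11 SE, adjusted p = 0.0331, limma). Replicate 4 of CAC was at 1.23 TPM and the other 6 lay above every mock library. Calls of Grin2d, Grin2b and Grin3b were lost in 9, 8 and 11 of 22 alternatives, with log2 fold changes between -0.27 and -0.19, -0.24 and -0.13, and 0.26 and 0.46. Among these were omissions of 1 library: replicate 1, 2 or 6 of CAC or 1, 2 or 3 of mock for Grin2d, replicate 6 or 7 of CAC or 1 or 3 of mock for Grin2b, and replicate 1, 2, 6 or 7 of CAC or 3, 4 or 5 of mock for Grin3b. None of the 3 was called against NCAC, where their log2 fold changes were -0.17, -0.11 and 0.24. Grin2a (GluN2A) and Grin3a (GluN3A) had 0.01 and -0.06 against mock and were not called.

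Of the delta receptor genes, Grid1, which encodes GluD1, had a log2 fold change of 0.07 at 8 wk, with a 95% interval of -0.05 to 0.19, and was not called.

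GABA-A subunits held 1 member called against mock at 8 wk, Gabra2, which encodes alpha2. It lies at chr5:70957597-71095849 on the minus strand. Its TPM in CAC was 25.5 at the lowest, 32.9 at the median and 42.5 at the highest, against 44.1, 43.7, 44.3, 40.9 and 41.4 in mock and 42.7, 46.5, 38.4, 41.6 and 45.001 in NCAC. As for Grm4, 6 of 7 CAC libraries lay below every mock and NCAC library, and the highest was replicate 3. The log2 fold change was -0.38 ± 0.076 (SE) against mock (adjusted p = 0.000283, limma) and -0.38 ± 0.076 against NCAC (adjusted p = 0.000692, limma). At 6 wk it had 29.2, 33.1, 38.2, 38.3 and 33.4 TPM in CAC, against 46.6, 52.2, 48.9, 39.7 and 45.2 TPM in NCAC. The log2 fold change of -0.42 ± 0.082 (SE) was called (adjusted p = 0.00221, limma), as were 9.45% of all tested genes. Mock at 6 wk gave 37.2, 45.7, 43.1, 39.7 and 41.8 TPM, and the difference of CAC from it, -0.27, was not called (adjusted p = 0.0790). Gabra2 stands in a group of 4 neighbouring genes on chromosome 5, within 1.4 Mb, and the other members, Gabrg1, Gabra4 and Gabrb1, had log2 fold changes of 0.08, -0.13 and -0.09 against mock at 8 wk that were not called. The annotated spans of Gabra4 and Gabrb1 overlap, as does that of Gabra5 with another gene, in each case on opposite strands. The library kit was stranded, but whether reads were assigned by strand is not given in the sources used here. The values of these 3 are therefore uncertain.

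Gabrr2, which encodes the rho2 subunit of slowly desensitising GABA channels, was at low levels and higher in CAC. It had 0.544, 2.30 and 3.35 TPM as lowest, median and highest values in CAC at 8 wk, against 0.834, 0.533, 1.06, 0.844 and 0.644 TPM in NCAC and 1.04, 1.12, 0.869, 1.22 and 1.05 TPM in mock. Of the 7 CAC libraries 6 lay above every NCAC library and 5 above every mock library, and the lowest was replicate 3. On the log2 scale the difference was 0.75 ± 0.20 (SE) against NCAC (adjusted p = 0.0103, limma) and 0.53 ± 0.20 against mock, which did not pass (adjusted p = 0.0513, limma). Without replicate 3 of CAC the value against mock was 0.69 (adjusted p = 0.00615, limma), and it also passed without replicate 4. The call against NCAC was lost with the replicate block and with the compared groups alone (adjusted p up to 0.103, limma). The pseudocount of 1 is close to this gene's level, so these values understate its change.

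Other abundant GABA-A subunits were not called. At 8 wk Gabra6 had a log2 fold change of 0.07 (95% interval -0.04 to 0.18), Gabrd, which encodes the extrasynaptic delta subunit, of 0.03 (-0.08 to 0.15) and Gabrb2 of 0.01 (-0.08 to 0.10). Gabra3, Gabra5 and Gabrg3 had -0.20, -0.28 and -0.13, none of them called. Without replicate 1 of mock, which was high in brainstem markers, Gabra5 turned to 0.06 and Gabra3 had -0.11, and neither was called. Both GABA-B genes were in the same range: Gabbr1, which encodes the GABA-binding subunit, had -0.05 (-0.12 to 0.02) and Gabbr2, which encodes the G protein-coupling subunit, had 0.04 (-0.03 to 0.12). Gabbr1 averaged 341 ± 15.2 TPM in CAC (SD, n = 7) and 352 ± 18.5 TPM in mock (SD, n = 5).

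Of the glycine receptor genes Glrb, whose product anchors the receptor to gephyrin, had 226 ± 6.51 TPM in CAC (SD, n = 7) and 236 ± 9.18 TPM in mock (SD, n = 5), a log2 fold change of -0.06 that was not called. Glra1, which encodes the alpha1 subunit of adult brainstem and spinal cord, varied most among all tested members, between 1.60 and 24.3 TPM. The 4 libraries high in brainstem markers had 19.8 to 24.3 TPM of Glra1 and the other 58 had 1.60 to 15.6 TPM. Gabra5 had 5.16 to 6.72 TPM in the 4 and 0.658 to 4.69 TPM in the others, and Gabra3 21.6 to 23.1 TPM in the 4 and 11.6 to 18.4 TPM in the others. The groups of CAC and NCAC at 6 wk and of mock at 8 wk each held 1 of these libraries. The log2 fold change of Glra1 in CAC against mock was 1.09 ± 0.51 (SE) at 6 wk and -0.57 ± 0.47 at 8 wk, and neither was called (adjusted p = 0.284 and 0.422, limma). Without replicate 2 of CAC at 6 wk Glra1 had 0.75, and without replicate 1 of mock at 8 wk it had -0.21. Glra2, which encodes the alpha2 subunit of the developing brain, had 0.03 at 8 wk.

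**Figure D4:**
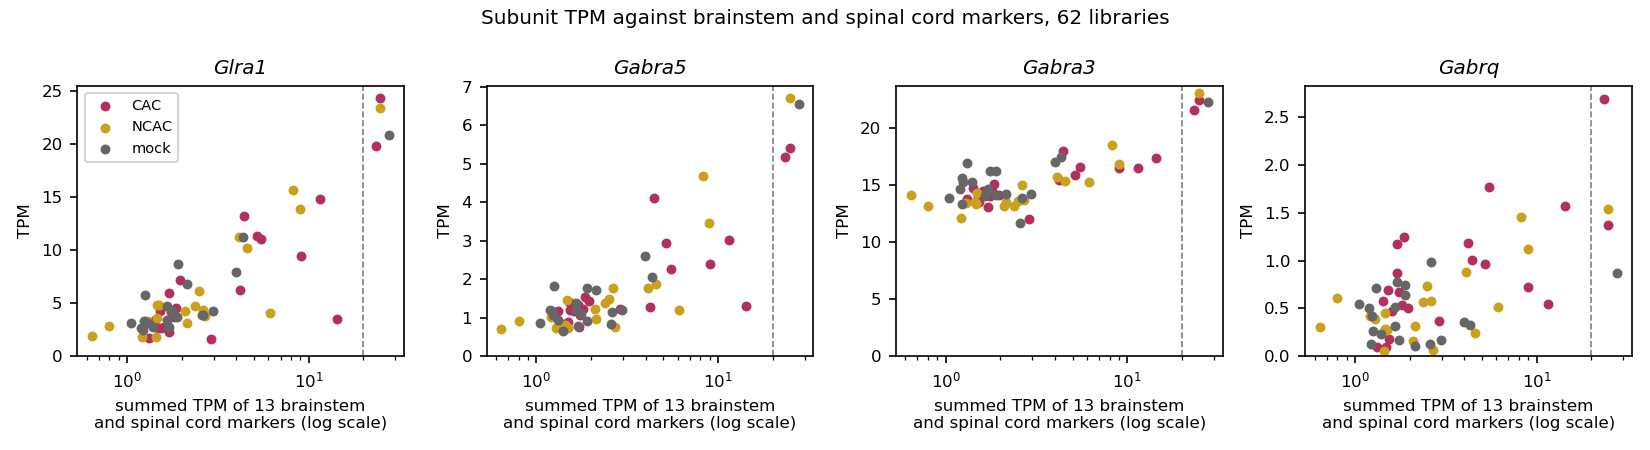
TPM of Glra1, Gabra5, Gabra3 and Gabrq in the 62 libraries against the summed TPM of 13 brainstem and spinal cord markers on a log axis, coloured by treatment; the dashed line marks 20 TPM. The 4 libraries to its right have the 4 highest values of Glra1, Gabra5 and Gabra3.

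Summed over classes, the metabotropic receptors were the class whose CAC and mock sums lay furthest apart at 8 wk. The mGlu sum was 453 ± 72.3 TPM in CAC (SD, n = 7), against 605 ± 31.2 TPM in NCAC and 559 ± 46.9 TPM in mock (SD, n = 5 each), a log2 ratio of group means of -0.30 to mock. Grm4 made up 54.4 ± 4.93% of it in CAC, against 64.4 ± 1.73% in NCAC and 62.5 ± 1.80% in mock. Grm4 alone averaged 250 TPM in CAC and 350 TPM in mock, so most of the class difference from mock was that gene. For the other 7 classes the log2 ratio lay between -0.08 (glycine) and 0.07 (kainate). GABA-A subunits summed to 2056 ± 94.3 TPM in CAC (SD, n = 7) and 2012 ± 92.5 TPM in mock (SD, n = 5), and all 52 members to 4630 ± 133 TPM in CAC and 4709 ± 220 TPM in mock. These sums are given without a test.

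**Figure D5:**
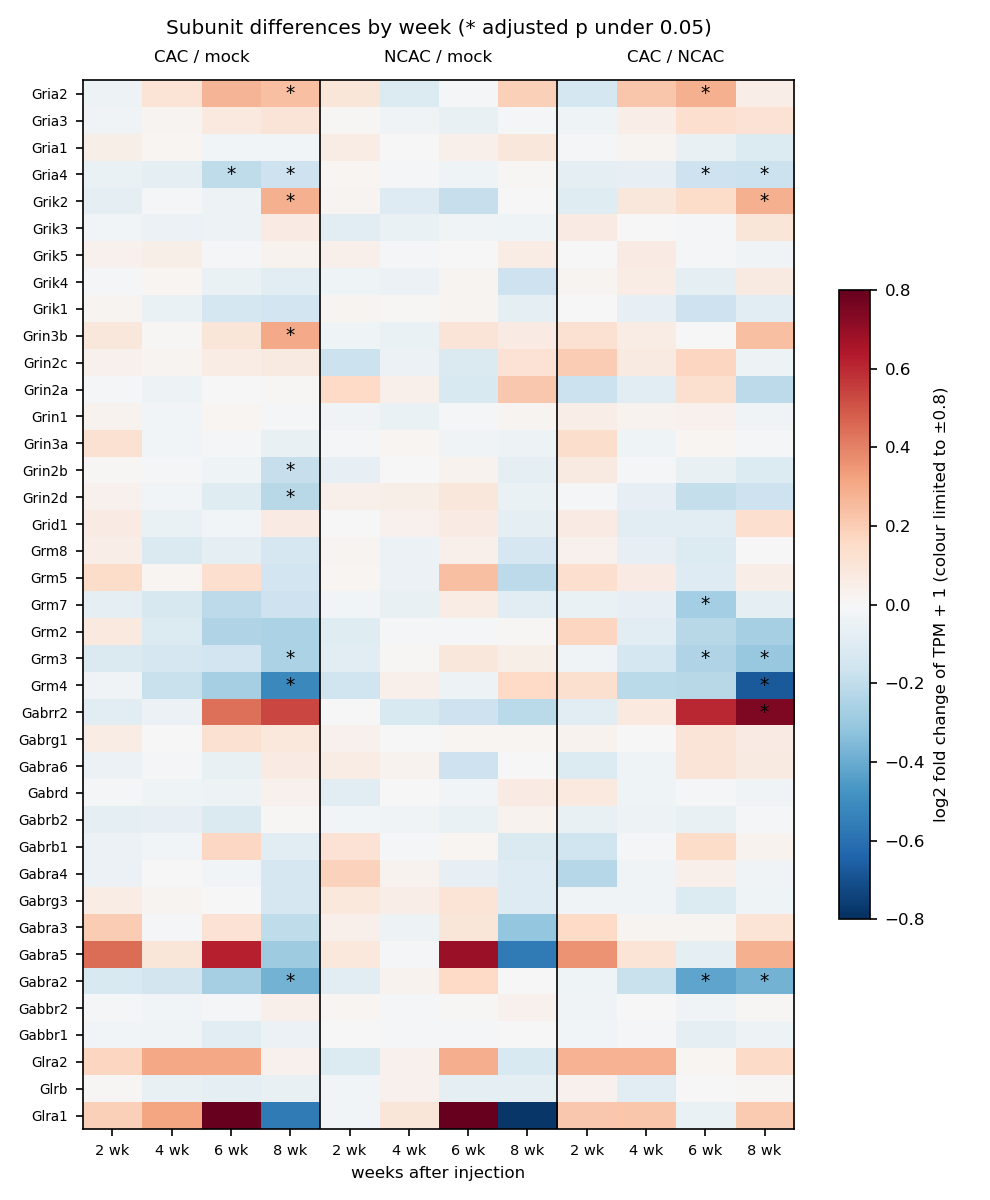
Log2 fold change of TPM + 1 for tested subunit genes in each week, for CAC over mock, NCAC over mock and CAC over NCAC; asterisks mark an adjusted p under 0.05 and the colour is limited to ±0.8. Asterisks appear at 6 and 8 wk in the comparisons of CAC, and there are none for NCAC over mock.

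Over the weeks, Grm4 averaged 393 ± 68.4, 329 ± 66.5, 298 ± 64.9 and 250 ± 66.1 TPM in CAC at 2, 4, 6 and 8 wk (SD, n = 5, 5, 5 and 7), against 399 ± 50.1, 367 ± 32.8, 354 ± 36.5 and 350 ± 37.5 TPM in mock. Gabra2 averaged 40.9 ± 3.02, 39.9 ± 5.03, 34.4 ± 3.87 and 33.1 ± 5.29 TPM in CAC, against 44.5 ± 2.45, 44.1 ± 2.94, 41.5 ± 3.22 and 42.9 ± 1.61 TPM in mock. The weekly trend of CAC minus that of mock was called for 0 members by limma, against 2.32% of all tested genes. An unadjusted p under 0.05 (limma) was reached by 11 of the 44 members and 2368 of all 14399 tested genes. The difference in trend was -0.08 ± 0.030 log2 units per week for Grm4 and -0.04 ± 0.018 for Gabra2 (adjusted p = 0.168 and 0.174, limma). Without replicate 3 of CAC at 8 wk 3 members passed, Grm4 and Gabra2 lower and Gabrr2 higher. Within mock alone the trend was called for 0 members by limma, against 0.0417% of all tested genes. An unadjusted p under 0.05 (limma) was reached by 4 of the 44 members and 1316 of all 14399 tested genes.

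The wider receptor machinery was read from 6 lists with 84 genes, of which 81 were tested. In CAC against mock at 8 wk 8 were higher and 6 lower (17.3%, background 20.8%). Of 18 genes of transmitter synthesis and transport, 4 were higher and 2 lower. Glul, the astrocyte enzyme that turns glutamate into glutamine, had 1409 ± 224 TPM in CAC (SD, n = 7) and 845 ± 51.98 TPM in mock (SD, n = 5), which was 0.72 ± 0.13 on the log2 scale (SE, adjusted p = 9.4e-05, limma). Slc6a9, the glial glycine transporter GlyT1, was lower (-0.25). Of 14 AMPA and kainate receptor auxiliary subunits Cacng3 was higher (0.36) and Cacng5 lower (-0.26). Of 19 excitatory scaffold genes 2 were higher, Dlgap1 (0.24) and Dlgap3 (0.30), whose products link receptor complexes to Shank proteins. Of 14 inhibitory scaffold genes Kctd12, an auxiliary subunit of GABA-B receptors, was lower (-0.32). Of 8 tested delta receptor ligand genes C1ql1 was lower (-0.59), and Cbln1, a cerebellin, had -0.19 and was not called. Of 10 genes of Purkinje cell calcium signalling Gna11 was higher (0.11) and Car8 lower (-0.17).

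Of 13 interneuron markers 4 were higher and 0 lower in CAC against mock at 8 wk, where 13.4% of all genes were higher, with sums between 2381 and 2743 TPM in CAC and between 2320 and 2492 TPM in mock. The list holds Cacng3, and most of each sum was Pvalb, which averaged 1681 TPM over all libraries. Against NCAC at 8 wk 4 of the 13 were higher and 1 lower (7.76% and 4.01% of all genes). A list of 9 forebrain and midbrain markers, of which 2 could be tested and 1 was higher, summed to between 171 and 238 TPM in CAC and between 168 and 190 TPM in mock, nearly all of it Ppp1r1b. The part of these cell types in the higher levels of Grik2, Gria2 and Grin3b was not tested.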

How the data were processed

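RNA of mouse cerebellum was sequenced in 62 libraries, whose 12 groups come from the sample descriptions. A treatment field that gives cachectic cells throughout was set aside. Per the labels' protocols, Trizol was used for extraction and a stranded TruSeq kit for mRNA libraries. The authors deposited a single table of TPM values by gene symbol. The build was mm10, per the submitters' processing notes. Aligner, quantifier and annotation: not given in the sources used here. Since TPM keeps no depth, there are no counting intervals or floors.

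The deposited TPM were transformed to log2(TPM + 1), and a symbol was tested if its mean was 1 TPM or more (14399 symbols). All 12 groups entered a single limma 3.58.1 fit (R 4.3.3; lmFit, contrasts, eBayes with trend; 50 residual degrees of freedom). P-values are two-sided and adjusted by Benjamini-Hochberg over all tested genes within each of 14 comparisons, at a threshold of 0.05. Fold changes on this scale understate changes of genes with low TPM. The fit was tested on simulated data. Errors are SD for TPM and SE for fold changes.

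Values by library or group are given for the highest member of each class and for members past the threshold in any comparison. From each pathway list, genes were named among the 4 with the smallest p. Some genes are not reported here. The members and lists were chosen with earlier results of these data known. Coordinates are from GENCODE mouse release M21 on mm10, and promoter sequences are from RefSeq. Alternatives were another pseudocount, no filter, 3 scalings, a replicate block, a choroid plexus covariate, the compared groups alone and leaving out each replicate. A brainstem covariate and the removal of libraries high in brainstem markers were added after seeing the data.

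Replicate numbers were checked for pairing. Of 60 pairs of libraries with the same number, 16 had a correlation of their deviations over 0.1. In 0 of 12 comparisons did every pair reach it, and the main fit used no pairing. The rule asks every pair to pass, so it cannot exclude batches shared by some pairs. In CAC against NCAC at 2 wk the correlations were 0.396, 0.133, -0.095, 0.166 and 0.187.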

Additional observations from a re-analysis of the deposited data

Results flagged for a closer look

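Of 204 sets of libraries examined (the 17 members given by library, in each of 12 groups), 10 held 1 library far from the rest by Dixon's test at the 95% level, which chance gives in about 1 of 20 groups. In Grm4, replicate 3 of CAC at 8 wk had 391.6 TPM, against 192.7 to 265.4 TPM in the other 6 libraries, and replicate 2 of mock at 8 wk had 416.6 TPM, against 325.4 to 338.7 TPM in the other 4. In Grin3b, replicate 4 of CAC at 8 wk had 1.229 TPM, against 1.970 to 2.250 TPM in the others, and replicate 2 of mock at 6 wk had 2.476 TPM, against at most 1.497 TPM. In Grin2d, replicate 5 of NCAC at 8 wk had 11.36 TPM, above the others' 9.433 TPM, and replicate 4 of NCAC at 6 wk had 9.489 TPM, below the others' 10.06 TPM. In Grik2, replicate 5 of CAC at 4 wk had 35.40 TPM, below the others' 47.52 TPM, and replicate 2 of NCAC at 4 wk had 48.60 TPM, above the others' 42.15 TPM. In Grik5, replicate 4 of CAC at 6 wk had 50.76 TPM, above the others' 46.47 TPM. In Gria2, replicate 4 of NCAC at 6 wk had 102.8 TPM, above the others' 90.95 TPM.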

How the results depend on the processing

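At 8 wk Grm4, Gabra2 and Grm3 kept their direction and their call in all 22 alternatives, against mock and against NCAC. Counts of called members moved by more than 1.5 times as follows. With the compared groups alone they were 0 and 4 against mock at 6 and 8 wk (1 and 9 as reported) and 1 and 3 against NCAC (5 and 6 as reported). Without the libraries high in brainstem markers they were 0 and 5 against mock at 6 and 8 wk and 2 against NCAC at 6 wk. Against mock at 6 wk the count was 0 with no filter, 2 with quantile normalization and 0 with a brainstem covariate, and against NCAC at 6 wk it was 3 with no filter. With the replicate block 4 members were called against mock at 8 wk, where Gria4, Gria2, Grin2b, Grin2d and Grin3b lost their call. Whether the replicate numbers mark shared batches is not settled, and no block could be fitted for the trend within mock. Leaving out each replicate gave 0 to 4 and 5 to 14 calls against mock at 6 and 8 wk, 2 to 6 and 5 to 8 against NCAC, and 0 to 3 for the difference in trend. The 14 arose without replicate 3 of CAC at 8 wk, and 5 without replicate 6 of CAC or replicate 3 of mock. Grik5, not called at 8 wk (log2 fold change 0.03), had -0.0062 with quantile normalization and -0.0039 with mitochondrially encoded genes removed. Apart from the libraries left out, the cause was not tested. Without depth, the precision of members near 1 TPM, such as Gabrr2, is unknown.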
